A study of Mus musculus with 24 samples.

Results

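The data described here are the expression profiles of adult mouse spinal cord neurosphere cells that had been deprived of EGF and FGF2 and then received both factors again (re EF), set against cells that had only been deprived of them (w/o EF). All 4 arrays titled as the dedifferentiation condition were compared with all 4 titled as the differentiation condition, over every probe set that was not a control, so that 8 of the 24 arrays of the series enter the comparison and 4 further arrays of neurospheres that kept growing in EGF and FGF2 (with EF) serve as a further level. In w/o EF, the cells of dissociated neurospheres lay on a coat of poly-D-lysine and laminin for 3 days in medium with 2% fetal bovine serum and no growth factor. In re EF the same step was followed by 3 days in EGF, FGF2 and heparin from which the serum had been taken away. With EF spheres grew in EGF, FGF2 and heparin. All cultures came from adult CD1 wild-type mice and carry the label passage 1. The returned factors, the lost serum, the heparin and the 3 additional days in culture therefore changed together and cannot be told apart, and "re EF" stands for all of them below. Each group holds 4 arrays, from 4 cultures numbered by mouse, and the numbers 1 to 4 recur in the 3 groups.

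Neurospheres are floating clusters in which spinal cord progenitors divide as long as EGF and FGF2 are given. Both factors bind receptor tyrosine kinases and drive the kinases RAF, MEK and ERK. ERK raises transcription of ETV factors, of cyclin D1 and of its own inhibitors, the Sprouty, Spred and dual specificity phosphatase proteins. Cyclin D1 with CDK4 or CDK6 inactivates the retinoblastoma protein and frees E2F factors, which switch on genes of DNA replication. Without the factors, progenitors stop dividing, and some build cilia or take on features of astrocytes, oligodendrocytes or neurons. The comparison asks how far the expression profile of cells that had stopped growing was changed by the return of the factors.

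The values are log2 signals, so that a difference of 1 is a 2-fold change. Of 41155 probe sets tested, 23521 named a single gene. They stood for 22180 genes, each taken at its brightest probe set. On the 12 arrays the signals had a median of 3.93 to 4.08 and a lower quartile of 3.04 to 3.14, and a signal near these values marks a dim probe set. The median SD between the 4 arrays of a group was 0.161 in w/o EF and 0.138 in re EF. Vimentin, a filament protein of glial progenitors, was among the brightest (Vim, 11.42 to 11.92 over the 12 arrays), as was the glutamate transporter of radial glia and astrocytes (Slc1a3, 9.71 to 10.36). The microglial markers Aif1 (3.31 to 4.00) and Itgam (3.09 to 3.48) and the endothelial markers Pecam1 (3.54 to 3.81) and Cdh5 (3.35 to 4.17) were dim on every array. The arrays measure a mixture of cells, in which fewer cells of a type and less RNA per cell cannot be told apart.

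Return of the factors was followed by higher expression of 2246 genes, which is 10.1% of all genes tested, and by lower expression of 1456, which is 6.56% (limma, Benjamini-Hochberg adjusted p under 0.05, n = 4 arrays a group), 16.7% in either direction. At least 2-fold, 550 genes were higher (2.48%) and 323 were lower (1.46%). All 4 re EF arrays lay above all 4 w/o EF arrays for 2638 genes (11.9%), and below them for 1874 (8.45%). Among the calls, 60.7% were higher, and this share rose to 73.9% (2912 higher, 1028 lower) when every array was centred on its median. It fell to 55.6% after quantile normalization of the 12 arrays and to 56.1% without w/o EF array 4. Along the first principal component, which held 45.9% of the variance, the with EF arrays scored -58.5 to -48.7, the w/o EF arrays 56.4 to 61.8 and the re EF arrays -21.1 to 1.94. The re EF arrays thus lay apart from both other groups on this axis, nearer to with EF.

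**Figure D1:**
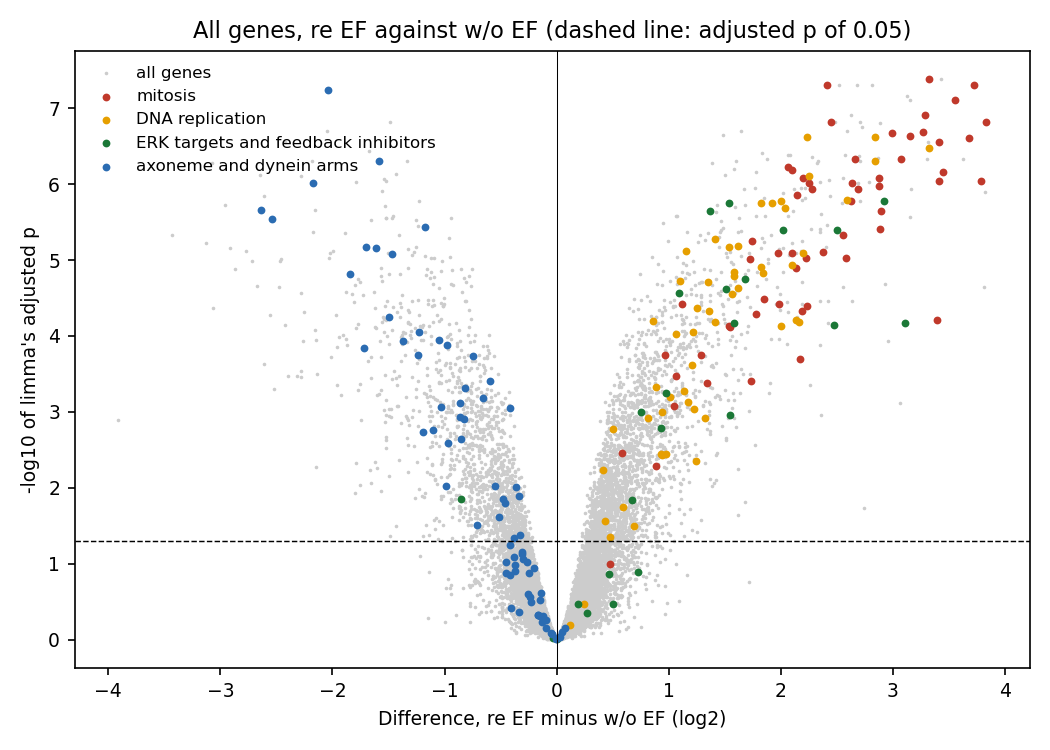
Difference in log2 signal between re EF and w/o EF (x axis) against -log10 of limma's adjusted p (y axis), 1 point per gene, with 4 gene lists in colour and a dashed line at an adjusted p of 0.05. Genes of mitosis and DNA replication lie to the upper right (57 of 58 and 52 of 54 called higher) and genes of the cilium's axoneme to the left (40 of 74 called lower).

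The largest rise was that of Mki67, which encodes the proliferation antigen Ki-67. Its signal was 4.68, 4.32, 4.98 and 4.16 on w/o EF arrays 1 to 4, and 8.55, 8.70, 8.14 and 8.09 on re EF arrays 1 to 4, against 9.34 to 9.60 in with EF. The groups lay far apart, with a difference of 3.83 (SE 0.18), or 14.2-fold, and an adjusted p of 1.52e-07. Of the 25 largest rises most belonged to genes of cell division, described below. The others had varied roles. Nptx1, a secreted protein of synapses, read 3.54, 3.55, 3.42 and 4.78 in w/o EF and 7.56, 7.92, 7.42 and 7.67 in re EF, a 14.1-fold rise (adjusted p = 1.29e-06). Igfbp4, which binds insulin-like growth factors, went from between 5.10 and 6.08 to between 8.97 and 9.63 (12.4-fold, adjusted p = 4.71e-07). Both genes stood in re EF about where they stood in with EF (7.18 to 7.58 and 8.96 to 9.41). Adam12, a membrane metalloproteinase, rose 10.8-fold (adjusted p = 4.11e-08) and Prkcb, a protein kinase C, 8.88-fold (adjusted p = 7.8e-08). Sting1, the adaptor that signals the presence of DNA in the cytoplasm, rose 9.93-fold (adjusted p = 2.78e-07).

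For a few leading genes re EF was the group with the highest signal. Apln, the ligand of the apelin receptor, read 5.73 to 6.54 in w/o EF, 9.20 to 9.76 in re EF and 8.22 to 8.49 in with EF (9.85-fold above w/o EF, adjusted p = 4.74e-07). Ifi202b, a member of an interferon-inducible family of DNA-binding proteins with closely related copies, was dim in with EF (3.00 to 3.25) and w/o EF (3.17 to 3.30). On re EF arrays it read 6.55, 5.99, 6.69 and 6.25, so it was bright in that group alone (8.74-fold over w/o EF, adjusted p = 7e-08). Few genes of interferon response and antigen presentation changed with it: of 41 measured, Ifi202b included, 3 were higher and 2 lower, with a median of -0.05, and 1 was lower without w/o EF array 1 or 2 or re EF array 1, 2 or 4.

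Myh8, a myosin heavy chain of developing muscle, had the largest fall over the 4 arrays, a rank that rested on w/o EF array 4. It read 6.78, 7.61, 7.02 and 10.57 in w/o EF and 3.88, 4.01, 3.86 and 4.58 in re EF, so that w/o EF array 4 stood far above the others and no array of one group reached the other. The log2 difference was -3.91 (SE 0.63, adjusted p = 0.00127), and -3.05 without w/o EF array 4, when Pi15 (-3.61), Adamts16 (-3.33), Gfap (-3.32) and Id4 (-3.08) fell further. Pi15, a secreted protease inhibitor, fell from between 8.66 and 9.55 to between 5.24 and 6.29 (10.8-fold, adjusted p = 4.67e-06). The matrix protease Adamts16 fell 8.76-fold (adjusted p = 5.95e-06), and the inhibitory helix-loop-helix protein Id4 and the astrocyte filament Gfap, treated below, each fell by 3.07. Scd4, a fatty acid desaturase, fell 7.76-fold, Ccn5, a matricellular protein, 7.31-fold, and Nuak1, a kinase of the AMPK family, 6.83-fold (adjusted p = 1.9e-06, 1.32e-05 and 7.52e-06). Fam216b fell 7.52-fold (adjusted p = 7.05e-06). Padi2, which converts arginine to citrulline in proteins, fell 6.59-fold (adjusted p = 1.02e-05), a log2 difference of -2.72, or -1.55 in the mean of its 2 probe sets. Kdr, a receptor for VEGF, went from 6.51, 7.09, 6.96 and 7.0 to 4.14, 3.87, 4.59 and 4.53 (6.1-fold, adjusted p = 1.45e-06), while no other of the 18 measured endothelial genes was called. S1pr3, a sphingosine-1-phosphate receptor, fell 5.89-fold (adjusted p = 5.35e-05) and the chemokine receptor Cxcr4 5.55-fold (adjusted p = 1.02e-05). The transporters Slc24a4 and Slc26a3 fell 5.58-fold and 5.5-fold, A2m, a broad protease inhibitor of plasma, 5.73-fold, Bbox1, which makes carnitine, 5.26-fold and Naaa, a hydrolase of lipid amides, fell as well (adjusted p from 9.55e-06 for Slc26a3 to 0.000495 for A2m).

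The lists below group genes by their role, and their counts stand beside the 10.1% of all genes that were higher and the 6.56% that were lower. In the list of ERK targets and feedback inhibitors, 16 of 24 measured genes were higher and 1 was lower, with a median difference of 1.03 against -0.0158 over all genes. Spry4, a Sprouty inhibitor of receptor tyrosine kinase signalling, read 4.36, 4.76, 5.28 and 5.30 in w/o EF and 7.60, 7.92, 7.64 and 8.21 in re EF (7.56-fold, adjusted p = 1.67e-06). The ETS factor Etv5 read 5.14, 5.08, 5.74 and 5.69 in w/o EF and 7.73, 8.13, 7.70 and 8.11 in re EF (5.66-fold, adjusted p = 3.99e-06). Its relative Etv4 rose 4.05-fold (adjusted p = 3.99e-06). On every re EF array these 3 genes stood above every w/o EF array and close to with EF, where Spry4 was 8.15 to 8.34, Etv5 8.12 to 8.75 and Etv4 6.62 to 7.17. Etv5 has 2 probe sets, and in their mean the rise was 1.40 on the log2 scale instead of 2.50. Dusp6, the phosphatase that acts on ERK in the cytoplasm, rose 5.56-fold (adjusted p = 7.22e-05), from between 7.41 and 8.96 to between 10.49 and 10.69, a difference of 2.48, or 1.7 in the mean of its 2 probe sets. Its nuclear relative Dusp4 read 5.75 to 6.06 in w/o EF and 7.24 to 7.58 in re EF, above the 6.33 to 6.65 of with EF (2.91-fold over w/o EF, adjusted p = 1.76e-06). Spred3 rose 3.21-fold, Spred2 2.13-fold and Spry2 2.59-fold (adjusted p = 1.8e-05, 2.69e-05 and 2.29e-06). Epha2, an ephrin receptor, rose 2.85-fold to 6.10 to 6.16 (adjusted p = 2.38e-05) and was lower in with EF (4.50 to 4.63). Its relative Epha4 was the single member that fell, by 0.85 (adjusted p = 0.014).

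**Figure D2:**
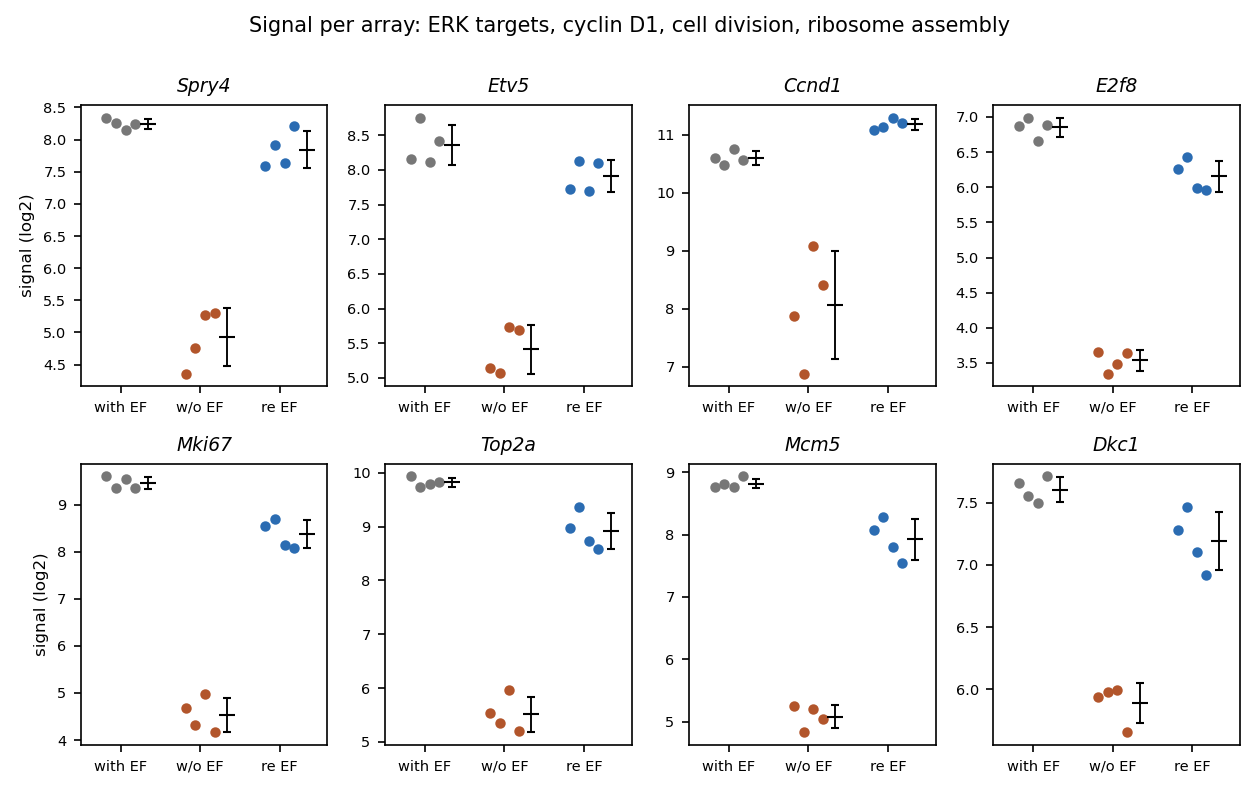
Log2 signal (y axis) of 8 genes on each array (points, cultures 1 to 4 from left to right) in with EF, w/o EF and re EF, with the mean and SD of each group as black bars. In every panel the 4 re EF arrays lie above the 4 w/o EF arrays, as for Spry4 (7.60 to 8.21 against 4.36 to 5.30).

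The receptors of EGF and FGF and their ligands did not move as a group: 5 of 26 were higher and 5 lower, with a median of -0.13. Egfr itself was not called. It read 8.23, 8.27, 8.43 and 8.06 in w/o EF and 8.34, 8.56, 8.52 and 8.30 in re EF, both below with EF (9.52 to 9.71). Fgfr3 read 7.72, 7.72, 7.52 and 7.71 in w/o EF and 6.69, 6.56, 6.24 and 6.55 in re EF, so that it fell by 1.16 (SE 0.10, adjusted p = 1.32e-05). Fgfr2 fell by 1.35 (adjusted p = 0.000636), from between 8.44 and 8.80 to between 6.88 and 7.40, and the neuregulin receptor Erbb4 fell by 1.33 (adjusted p = 0.00122). Among ligands of EGFR, epiregulin (Ereg) rose 3.96-fold, from between 4.70 and 5.95 to between 7.06 and 7.82 (adjusted p = 0.000109), a difference of 1.98, or 1.11 in the mean of its 2 probe sets, and Hbegf 1.6-fold (adjusted p = 0.0143). Fgf1, an FGF that binds all FGF receptors, rose 3.31-fold (adjusted p = 4.19e-05). The remaining calls were slight. Fgfr1 (0.36) and the EGFR inhibitor Errfi1 (0.59) were called higher, and Erbb2 (-0.35) and Lrig3 (-0.49) lower, with adjusted p of 0.0428, 0.0399, 0.05 and 0.0485, and their groups overlapped. Of the list, 3 were higher without w/o EF array 1 or 2 or re EF array 1 or 3, and 3 lower without w/o EF array 1, 2 or 3 or re EF array 1. Each of these 4 calls was lost in 6 of the 8 fits that left out 1 array (adjusted p up to 0.139). For all 4 genes the call was lost without w/o EF array 1 or 2 or re EF array 1 or 4. It was also lost without w/o EF array 3 for Errfi1, Erbb2 and Lrig3, without w/o EF array 4 for Fgfr1, without re EF array 3 for Errfi1, Fgfr1 and Erbb2, and without re EF array 2 for Lrig3.

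Immediate early genes, which answer a growth factor quickly and briefly, were measured 3 days after its return. Of 24, 2 were higher and 4 lower. Jun rose by 0.83 (adjusted p = 0.00798) and Klf10 by 0.98 (adjusted p = 0.000983), while Nr4a3 fell by 1.66, the stress-induced Atf3 fell by 1.57 and Jund fell by 1.01 (adjusted p = 0.00019, 1.63e-05 and 0.000785).

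Of 20 genes for D cyclins, their kinases, E2F and Myc factors, 12 were higher and 1 lower, with a median of 0.72. Without w/o EF array 4, 2 were lower. Cyclin D1 (Ccnd1) read 7.87, 6.88, 9.09 and 8.41 in w/o EF and 11.07, 11.13, 11.29 and 11.20 in re EF, all of which exceeded the 10.47 to 10.75 of with EF (8.63-fold over w/o EF, adjusted p = 6.67e-05). The w/o EF arrays scattered widely for this gene (SD 0.930), whereas those of re EF scarcely did (SD 0.0943). Cyclin D2 (Ccnd2) rose 1.95-fold (adjusted p = 0.000805). E2f8, a repressor made during DNA replication, rose 6.17-fold, from between 3.35 and 3.66 to between 5.97 and 6.42 (adjusted p = 1.22e-07). E2f3, an activating E2F, rose 2.02-fold, the retinoblastoma relative Rbl1 3.77-fold, Cdk2 2.17-fold and Myc 1.73-fold (adjusted p between 3.61e-05 for E2f3 and 0.00113 for Cdk2). The retinoblastoma gene Rb1 fell by 0.50 (adjusted p = 0.018), a call lost without w/o EF array 3 (adjusted p = 0.0534) or re EF array 2 (adjusted p = 0.0565).

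Among 24 inhibitors of the cell cycle and targets of p53, 3 were higher and 6 lower. The inhibitor of cyclin-dependent kinases p27 (Cdkn1b) read 8.35, 8.05, 8.24 and 8.22 in w/o EF and 7.66, 7.67, 7.69 and 7.66 in re EF, and fell by 0.55 (adjusted p = 0.000601). Cdkn2a, which encodes the p16 and ARF inhibitors, fell by 0.76 (adjusted p = 0.0075), Gadd45b fell by 0.82 (adjusted p = 0.00571) and Gas1, a gene of arrested cells, fell by 1.03 (adjusted p = 0.0126). Not every inhibitor fell. The p21 gene Cdkn1a, which is also a target of ERK, rose by 0.47 (adjusted p = 0.00836) and the kinase Plk2 rose 3.73-fold (adjusted p = 0.000413). Plk3 rose by 0.50 (adjusted p = 0.019), a call lost without w/o EF array 1 or 3 or re EF array 1 (adjusted p up to 0.0591).

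Genes of mitosis rose almost without exception: 57 of 58 measured were higher (98.3%), none was lower, and the median rise was 2.26. Of these 57, 54 rose at least 2-fold. Top2a, the topoisomerase that untangles chromosomes, read 5.54, 5.34, 5.96 and 5.20 in w/o EF and 8.98, 9.37, 8.74 and 8.59 in re EF (10.6-fold, adjusted p = 2.78e-07). Plk1, the kinase that drives entry into mitosis, read 4.57, 4.26, 4.23 and 4.94 in w/o EF and 8.14, 8.68, 7.85 and 8.04 in re EF (12.8-fold, adjusted p = 2.44e-07). Prc1, which bundles microtubules of the central spindle, rose 13.2-fold (adjusted p = 5e-08). For these genes the groups lay far apart, and re EF stayed below with EF (9.74 to 9.93 for Top2a, 8.98 to 9.39 for Plk1 and 9.08 to 9.24 for Prc1). Cdk1, the mitotic kinase, rose 10.5-fold, its partner cyclin A2 (Ccna2) 9.61-fold and Cks2, which binds the kinase, 14-fold. Anln and Kif23, which act when the cell body divides, and the mitotic kinase Pbk rose 13.8-fold, 9.78-fold and 11.7-fold. The kinetochore proteins Ndc80 and Nuf2 rose 10.9-fold and 10.7-fold, and Ube2c, which hands ubiquitin to the anaphase-promoting complex, and the spindle kinase Aurka rose by 3.33 and 2.42 on the log2 scale (adjusted p from 4.11e-08 for Ube2c to 6.21e-05 for Cdk1 among these genes). The single uncalled member was securin (Pttg1, difference 0.47, adjusted p = 0.099), which was called with the culture number as a block (adjusted p = 0.0159). The mean signal of the list was 4.61 to 4.88 in w/o EF, 6.82 to 7.43 in re EF and 7.952 to 7.995 in with EF.

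DNA replication rose with it: 52 of 54 genes were higher (96.3%), none lower, with a median of 1.34. Mcm5, a subunit of the helicase that unwinds DNA at the fork, read 5.24, 4.83, 5.20 and 5.05 in w/o EF and 8.07, 8.29, 7.80 and 7.54 in re EF (7.18-fold, adjusted p = 2.43e-07). Its partners Mcm3, Mcm2 and Mcm6 rose 6.03-fold, 4.75-fold and 3.78-fold. Rrm2, which supplies deoxynucleotides, rose 7.15-fold, Hells, a chromatin remodeller of dividing cells, 9.98-fold, the polymerase Pole 4.69-fold and the ligase Lig1 4.01-fold (adjusted p from 2.43e-07 for Pole to 1.76e-06 for Mcm6 among these genes). In the mean of their 2 probe sets each, Rrm2 rose by 1.63 instead of 2.84 and Pole by 1.00 instead of 2.23. Gins4 (0.25, adjusted p = 0.335) and Recql4 (0.12, adjusted p = 0.63) were not called. In the mean over the list, w/o EF arrays lay between 5.07 and 5.24 and re EF arrays between 6.39 and 6.90.

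Mitosis genes share a promoter motif known as the cell cycle homology region, TTTGAA, often close to a CCAAT box bound by NF-Y, and many replication genes hold the E2F sites TTTGGCGC or TTTCCCGC. The first RefSeq window of each gene (250 bases before to 50 bases after the start, GRCm38.p6) was searched on both strands. Windows for 4 mitosis genes and for Hells follow, and they were picked by their motifs. The 4 are the steepest risers of the mitosis list among genes whose window held both CCAAT and TTTGAA. Hells is the steepest riser of the replication list among genes whose window held an E2F site. The motifs in these windows were thus given by the choice, and some steeper risers of mitosis, such as Anln, were passed over. Both motifs, or their reverse complements ATTGG and TTCAAA, are in capitals, and for Hells the E2F site. The windows are those of Mki67 (chr7:135716330-135716629, minus strand), Prc1 (chr7:80294201-80294500, plus strand), Plk1 (chr7:122159185-122159484, plus strand), Top2a (chr11:99024140-99024439, minus strand) and Hells (chr19:38930740-38931039, plus strand).
Mki67: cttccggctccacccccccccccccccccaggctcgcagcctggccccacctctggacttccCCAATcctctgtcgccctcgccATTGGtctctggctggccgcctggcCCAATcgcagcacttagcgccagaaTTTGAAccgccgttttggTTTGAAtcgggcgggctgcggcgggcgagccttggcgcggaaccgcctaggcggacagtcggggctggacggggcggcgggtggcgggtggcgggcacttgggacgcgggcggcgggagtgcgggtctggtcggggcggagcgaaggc
Prc1: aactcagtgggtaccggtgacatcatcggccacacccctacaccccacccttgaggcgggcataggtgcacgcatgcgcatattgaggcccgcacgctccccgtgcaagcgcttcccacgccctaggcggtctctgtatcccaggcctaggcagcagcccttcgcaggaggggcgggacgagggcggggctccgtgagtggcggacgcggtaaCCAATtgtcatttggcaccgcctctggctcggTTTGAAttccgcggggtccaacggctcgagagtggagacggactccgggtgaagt
Plk1: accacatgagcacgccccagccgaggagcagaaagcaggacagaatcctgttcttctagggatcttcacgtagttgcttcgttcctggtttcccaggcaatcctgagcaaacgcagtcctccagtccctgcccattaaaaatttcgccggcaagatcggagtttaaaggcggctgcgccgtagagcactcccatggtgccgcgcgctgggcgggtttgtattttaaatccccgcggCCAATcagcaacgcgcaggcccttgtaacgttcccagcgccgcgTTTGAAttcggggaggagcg
Top2a: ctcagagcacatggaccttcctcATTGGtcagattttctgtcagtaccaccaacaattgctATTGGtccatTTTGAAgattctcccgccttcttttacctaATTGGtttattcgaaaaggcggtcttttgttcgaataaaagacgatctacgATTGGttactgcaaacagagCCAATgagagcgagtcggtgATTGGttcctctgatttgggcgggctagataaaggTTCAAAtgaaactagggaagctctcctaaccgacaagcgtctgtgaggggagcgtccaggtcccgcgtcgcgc
Hells: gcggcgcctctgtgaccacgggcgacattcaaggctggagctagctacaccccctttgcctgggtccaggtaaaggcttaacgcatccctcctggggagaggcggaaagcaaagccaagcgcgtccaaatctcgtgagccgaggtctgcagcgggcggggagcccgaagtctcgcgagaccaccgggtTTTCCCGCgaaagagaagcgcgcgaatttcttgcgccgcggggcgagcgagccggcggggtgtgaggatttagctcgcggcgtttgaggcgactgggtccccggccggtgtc

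TTTGAA was found in 37 of the 49 mitosis genes that had a window (75.5%), against 18.1% of all 27025 windows, and CCAAT in 35 (71.4%), against 37.9%. Both were present in 31 (63.3%), against 7.12% of all windows. CCAAT alone was not particular to mitosis genes. It was in 62.8% of replication windows and in 61.1% of windows of intraflagellar transport genes, described below, more of which were lower than higher. In the Prc1 window CCAAT stands before TTTGAA, whose last base falls on the start of the gene. In Plk1 TTTGAA lies after the start, and Top2a holds 6 CCAAT motifs. The E2F sites were found in 2 mitosis windows (4.08%) but in 13 of 43 replication windows (30.2%), against 1.63% of all. Among windows of the genes that rose at least 2-fold, 16.4% (71 of 434) held both CCAAT and TTTGAA, and among those that fell as much, 2.02% (5 of 248). The genes that rose at least 2-fold include 54 genes of the mitosis list. The 16.4% is therefore not separate from the share of mitosis windows, and the share without mitosis genes was not counted. These matches describe letters in the windows and not sites shown to be bound.

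Ribosome assembly was the next list in size of its share: 33 of 47 genes of the nucleolus were higher (70.2%), none lower, with a median rise of 0.60. The changes were smaller than in the cell cycle lists. Dkc1, which modifies ribosomal RNA, read 5.94, 5.98, 6.00 and 5.65 in w/o EF and 7.28, 7.46, 7.10 and 6.92 in re EF (2.46-fold, adjusted p = 1.94e-05). The RNA methyltransferase Nop2 rose 2.14-fold, Nop58, a core protein of small nucleolar RNPs, 1.86-fold and the nucleolar GTPase Gnl3 1.83-fold (adjusted p = 0.00014, 0.000172 and 0.000205). The ETS motif CCGGAAGT was found in 27.9% of this list's 43 windows, against 4.0% of all. It was also in 13.9% of 36 windows of intraflagellar transport genes, described below, more of which were lower than higher. Replication windows held it in 11.6% and mitosis windows in 10.2%, and no window of the ERK list did. Among genes that rose at least 2-fold it was in 5.53%, against 5.22% of genes measured. Of 40 respiratory chain genes, 14 were higher and none lower (median 0.35), led by Cox7a2 at 1.97-fold, cytochrome c (Cycs) at 1.64-fold and Ndufa2 at 1.56-fold (adjusted p = 0.000109, 0.0021 and 0.000528). With the culture number as a block in the fit, 23 of the 40 were called higher, and without re EF array 4 1 was called lower.

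Other metabolic genes split. Of 23 genes of glycolysis and glucose uptake, 5 were higher and 5 lower, with a median of -0.09, and single arrays moved both counts: 3 were higher without re EF array 3, and 2 or 3 were lower without w/o EF array 1 or re EF array 2 or 4. The enzymes Gapdh, Pkm and Ldha rose by 0.84, 0.68 and 0.61 (adjusted p = 0.00161, 0.00162 and 0.00395). The aldolase Aldoc fell by 0.50 (adjusted p = 0.02), a call lost without w/o EF array 1 or 2 or re EF array 1 or 4 (adjusted p up to 0.0601). Slc2a4, the insulin-responsive glucose transporter, fell 2.74-fold and the lactate carrier Slc16a1 fell by 0.80 (adjusted p = 4.21e-05 and 0.000863). Elovl6, which lengthens fatty acids, rose 2.75-fold (adjusted p = 4.33e-06) and Gpam, which starts triglyceride synthesis, fell 2.35-fold (adjusted p = 9.31e-05). The amino acid transporter Slc7a1 rose 2.15-fold (adjusted p = 1.93e-05). Higher in re EF than in either other group were the stress protein Nupr1 (5.94, 6.61, 6.80 and 7.20, against 4.78 to 5.48 on the other 8 arrays) and the lysosomal protease Ctsh (6.58 to 6.91, against 4.44 to 5.04). They exceeded w/o EF 2.58-fold and 3.62-fold (adjusted p = 0.00177 and 2.67e-06).

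**Figure D3:**
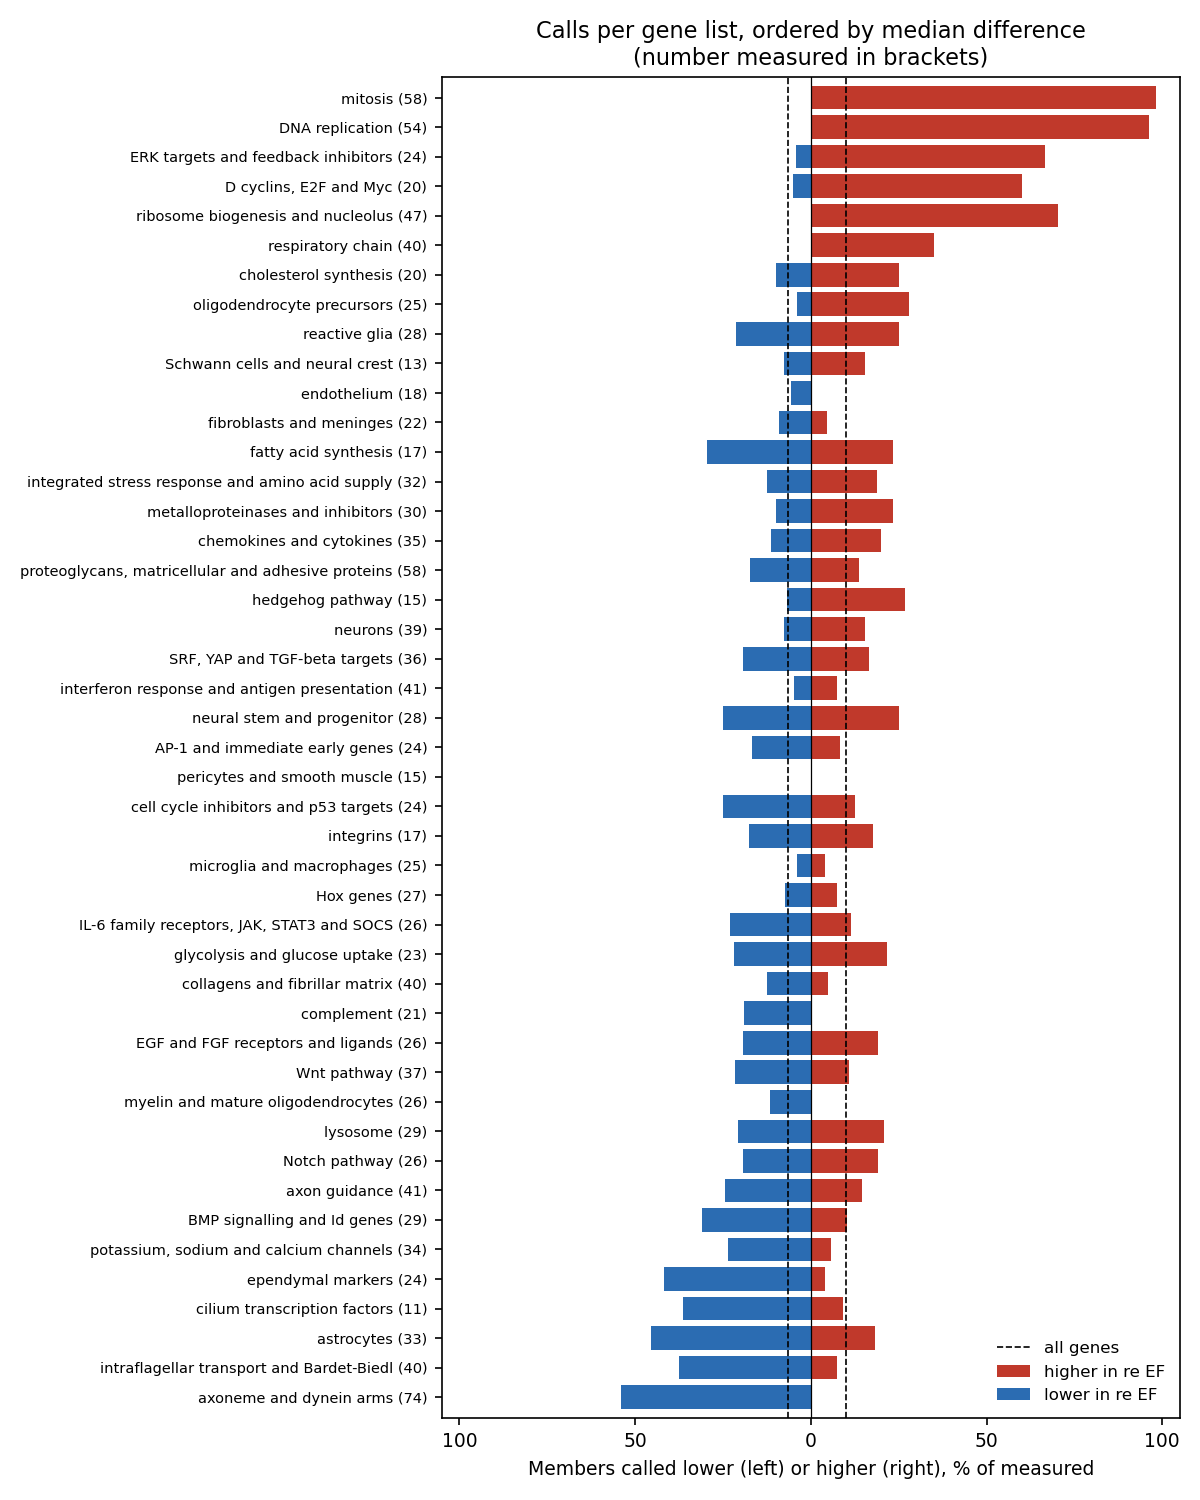
Share of measured members called lower (left, blue) and higher (right, red) in re EF against w/o EF for the 45 gene lists, ordered by median difference, with dashed lines at the shares of all genes (6.56% and 10.1%). Cell division and ribosome lists stand at the top (98.3% of mitosis genes higher) and cilium lists at the bottom (54.1% of axoneme genes lower).

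Cilium genes moved the other way. Motile cilia are built when FOXJ1 and RFX factors switch on genes of the axoneme, the microtubule core with its dynein motors, and of intraflagellar transport, which carries parts along it. Of 11 transcription factors of ciliated cells, 4 were lower and 1 higher. Foxj1 read 8.46, 8.66, 8.71 and 8.10 in w/o EF and 7.59, 7.54, 7.62 and 7.90 in re EF, with 6.53 to 6.97 in with EF. The groups did not overlap, and Foxj1 fell by 0.82 (SE 0.14, 1.76-fold, adjusted p = 0.00209). Rfx2 read 6.99, 7.15, 6.91 and 7.22 in w/o EF and 5.89, 5.90, 5.83 and 5.96 in re EF, and fell by 1.17 (SE 0.10, adjusted p = 8.8e-06). Rfx3 fell by 0.69 and Rfx1 fell by 0.61 (adjusted p = 0.00309 and 0.00162). For Rfx4 the difference was -0.25 (adjusted p = 0.351, or 0.0481 with the culture number as a block), and both groups (8.07 to 8.83) were below with EF (9.16 to 9.61). Trp73, dim on all 12 arrays (4.13 to 4.65), was not called either (adjusted p = 0.256). Myb, which acts in dividing progenitors and early in the making of multiciliated cells, rose 1.76-fold (adjusted p = 0.000359).

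Downstream, 40 of 74 genes of the axoneme and its dynein arms were lower (54.1%) and none was higher, with a median of -0.43. Of these, 19 fell at least 2-fold. Dnah6, a heavy chain of inner arm dynein, read 6.54, 6.71, 6.17 and 5.62 in w/o EF and 3.73, 3.61, 3.63 and 3.53 in re EF, a 6.21-fold fall (adjusted p = 2.19e-06). The re EF signals were dim, below the median of the arrays, and 3 of the 4 stood slightly above with EF (3.33 to 3.57), so that the fold is limited by the background. Rsph4a, a radial spoke protein, read 6.35, 6.27, 6.02 and 5.43 in w/o EF and 3.42, 3.15, 3.62 and 3.71 in re EF (5.83-fold, adjusted p = 2.92e-06). The outer arm heavy chains Dnah9 and Dnah11 fell 4.11-fold and 3.01-fold (adjusted p = 5.72e-08 and 5.03e-07). Cfap43, needed for the flagellum, fell 4.5-fold, the dynein light intermediate chain Dnali1 3.26-fold, the nexin-dynein protein Drc7 2.26-fold and the central pair protein Spef2 2.15-fold (adjusted p = 9.61e-07, 6.83e-06, 3.71e-06 and 0.00174). Like Foxj1, Dnali1 lay between the other groups in re EF (5.68 to 6.30, against 7.52 to 7.88 in w/o EF and 4.71 to 5.16 in with EF). Of the 74 genes, 23 had a mean signal below the median of the arrays, where a fall could hardly be seen.

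Of 40 genes of intraflagellar transport and of the Bardet-Biedl complex, which sorts membrane proteins of the cilium, 15 were lower and 3 higher, with a median of -0.27. Bbs7 read 6.85, 6.88, 6.87 and 6.59 in w/o EF and 5.50, 5.63, 5.62 and 5.53 in re EF (2.34-fold, adjusted p = 1.67e-06). Ift81, Ift80, Ift172 and Wdr19, all parts of the transport trains, fell (differences of -0.79, -0.73, -0.69 and -0.72, adjusted p from 0.000117 for Ift80 to 0.00273 for Wdr19). Hspb11 and Traf3ip1, also train proteins, rose by 0.72 and 0.59 (adjusted p = 0.00361 and 0.0151), and Traf3ip1 was not called after quantile normalization (adjusted p = 0.0705). Ttc21b rose by 0.46 (adjusted p = 0.0291), a call lost without w/o EF array 2 or 4 or re EF array 1, 2 or 3 (adjusted p up to 0.0903).

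**Figure D4:**
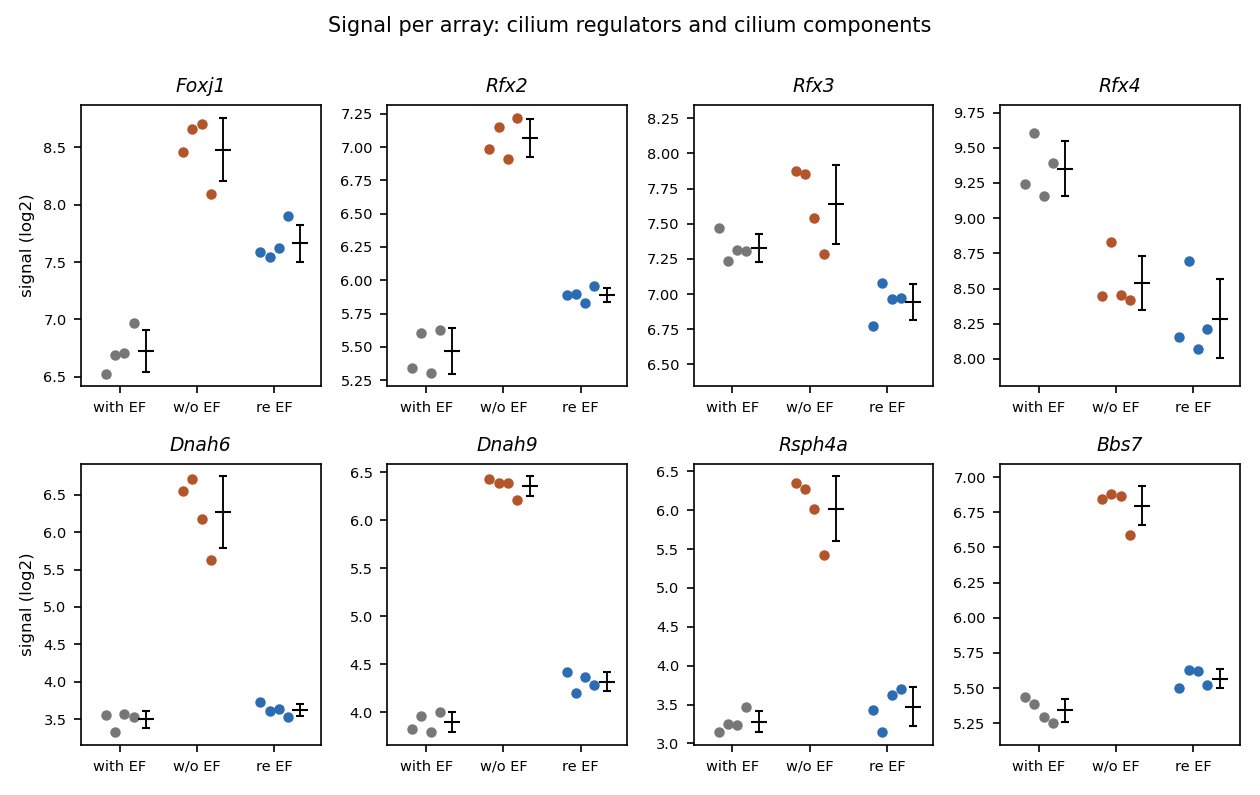
Log2 signal (y axis) of 4 regulators and 4 components of cilia on each array (points, cultures 1 to 4 from left to right) in 3 groups, with mean and SD as black bars. Dnah6, Dnah9, Rsph4a, Bbs7 and Foxj1 are lower in re EF than in w/o EF (Foxj1 7.54 to 7.90 in re EF), and the groups overlap for Rfx4.

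Of 24 markers of ependymal cells, the ciliated lining of the central canal, 10 were lower, 1 was higher and 13 were not called. A mean signal below the median of the arrays was found for 8 of the 24. Foxj1 and Rsph1 are counted here as well as in the cilium lists. Vim and most of the ependymocyte markers that the paper takes from a database were not called. Prominin 1 (Prom1, also known as CD133) read 9.19, 9.22, 8.69 and 7.90 in w/o EF and 6.50, 6.37, 6.25 and 5.41 in re EF (6.13-fold, adjusted p = 0.000233). Nnat, Mia, Dynlrb2 and Rsph1 fell (the last 3 by differences of -1.65, -1.29 and -0.85, adjusted p from 3.45e-05 for Dynlrb2 to 0.00224 for Rsph1). In the opposite direction S100b, which astrocytes and ependymal cells share, rose by 0.85 (adjusted p = 0.00251).

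Astrocyte genes fell more often than they rose: 15 of 33 were lower (45.5%) and 6 higher, with a median of -0.26. Gfap, the filament of astrocytes, read 9.29, 9.15, 8.12 and 7.84 in w/o EF and 5.67, 5.78, 5.69 and 4.98 in re EF, an 8.4-fold fall (adjusted p = 4.27e-05), with 4.27 to 4.98 in with EF. Aqp4, the water channel of astrocyte endfeet, read 11.07, 10.30, 10.89 and 10.51 in w/o EF and 9.45, 8.68, 9.53 and 9.0 in re EF (2.89-fold, adjusted p = 0.00135). Unlike Gfap, it remained far above with EF (5.81 to 6.74). Mlc1 and the sodium pump subunit Atp1b2, both of astrocyte membranes, fell (differences of -0.86 and -0.91), the lipid carrier Apoe fell by 1.13 and the glial factor Sox9 fell by 0.75 (adjusted p from 1.31e-05 for Mlc1 to 0.00309 for Sox9). Acsbg1, which activates long fatty acids, rose by 0.85 (adjusted p = 5.5e-05).

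BMP signals favour astrocytes and act through Id proteins, which block neurogenic and oligodendrocyte factors. Of 29 genes of this pathway, 9 were lower and 3 higher, the latter falling to 1 without w/o EF array 1, 2 or 4 or re EF array 1, and to 0 without re EF array 3. Id4 read 8.46, 8.22, 8.03 and 8.21 in w/o EF and 5.21, 4.69, 5.39 and 5.33 in re EF (8.4-fold, adjusted p = 5.23e-07), with 4.32 to 5.03 in with EF. Id3, which read 8.05 to 8.52 in w/o EF and 6.57 to 7.14 in re EF, fell by 1.56 (adjusted p = 1.89e-05), and Id1 fell by 0.65 (adjusted p = 0.0104). These 3 genes thus fell by unequal amounts. The inhibitory Smad6 fell by 1.17, the receptor Bmpr1b fell by 0.87 and the antagonist Nog fell by 0.76 (adjusted p = 8.85e-05, 0.000379 and 0.00152).

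**Figure D5:**
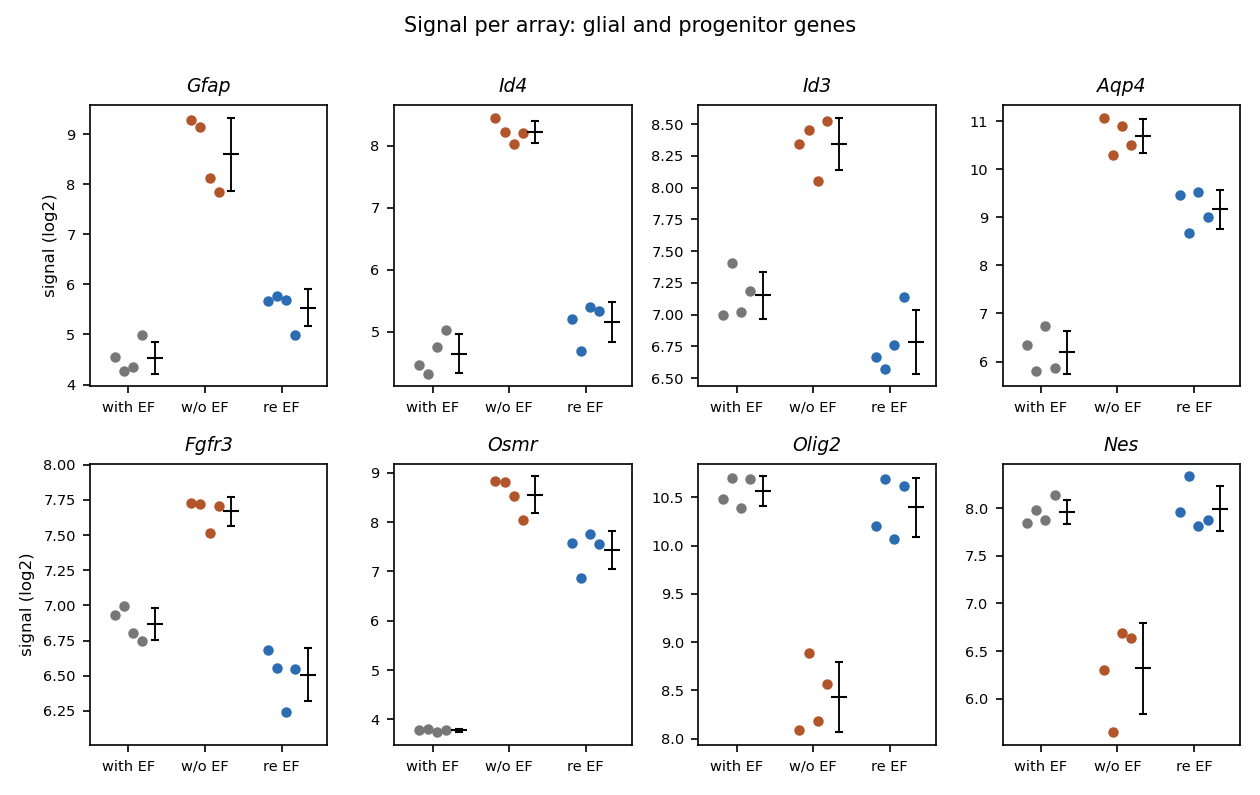
Log2 signal (y axis) of 8 glial and progenitor genes on each array (points, cultures 1 to 4 from left to right) in 3 groups, with mean and SD as black bars. Gfap, Id4, Id3, Aqp4, Fgfr3 and Osmr are lower in re EF than in w/o EF and Olig2 and Nes higher, while Osmr in re EF (6.87 to 7.77) stays far above with EF (3.74 to 3.81).

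The oncostatin M receptor belongs to the IL-6 family, whose members share the subunit gp130 and signal through STAT3. Of 26 genes of this system 6 were lower and 3 higher. Osmr read 8.84, 8.81, 8.54 and 8.04 in w/o EF and 7.57, 6.87, 7.77 and 7.55 in re EF, so the groups did not overlap but re EF kept most of its distance from with EF (3.74 to 3.81). It fell by 1.11 (SE 0.20, adjusted p = 0.00251). The gp130 gene Il6st fell by 0.78, Stat3 fell by 0.53 and its inhibitor Socs3 fell by 0.53 (adjusted p = 7.52e-05, 0.00113 and 0.0166), and with only the 8 arrays compared Socs3 was not called (adjusted p = 0.0532). The 3 members that rose were the cytokine Clcf1 (2.67-fold), the inhibitor Socs5 (2.12-fold) and the receptor Il6ra (1.82-fold), with adjusted p of 0.000637, 0.000138 and 0.00113. For Clcf1 and Il6ra re EF was the highest group, at 6.24 to 7.06 and 5.71 to 6.26 against 4.08 to 4.51 and 4.49 to 4.60 in with EF.

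Reactive glia markers were mixed, with 7 of 28 higher and 6 lower. Timp1, an inhibitor of metalloproteinases induced in reactive astrocytes, read 3.31, 3.80, 3.75 and 3.59 in w/o EF and 5.99, 6.47, 6.94 and 6.19 in re EF, above with EF as well (3.96 to 4.11). It rose 6.9-fold (adjusted p = 9.29e-07), and B3gnt5, a glycolipid enzyme, 2.35-fold (adjusted p = 0.000518). Steap4, a metal reductase, fell 2.48-fold (adjusted p = 7.02e-05), as did S1pr3, A2m, Gfap and Osmr, given above. Of 21 complement genes 4 were lower (2 without w/o EF array 2 or re EF array 2 or 3) and none higher, with C4b falling 2.88-fold (adjusted p = 0.00236).

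Olig1 and Olig2, the helix-loop-helix factors of the oligodendrocyte lineage, both rose. Olig2 read 8.09, 8.88, 8.18 and 8.57 in w/o EF and 10.20, 10.69, 10.07 and 10.62 in re EF (3.9-fold, adjusted p = 2.28e-05). Olig1 read 9.16, 8.89, 9.28 and 8.96 in w/o EF and 10.78, 10.73, 10.58 and 10.61 in re EF (3.03-fold, adjusted p = 5.03e-07). Both reached the range of with EF (10.39 to 10.70 and 10.61 to 10.71). In the list of oligodendrocyte precursors, which includes both, 7 of 25 genes were higher (28%) and 1 lower (4%), against 10.1% and 6.56% of all genes, with a median of 0.09. Without w/o EF array 4, 2 were lower. Xylt1, which starts the sugar chains of proteoglycans, rose 4.79-fold, the phosphatase inhibitor Ppp1r14b 2.56-fold and the proteoglycan versican (Vcan) 2.37-fold (adjusted p = 1.17e-06, 0.00109 and 0.00371), and C1ql1 fell 3.8-fold (adjusted p = 0.000607). The phosphatase Ptprz1 rose by 0.43 (adjusted p = 0.0098) and the factor Sox8 by 0.65 (adjusted p = 0.0362), a call of Sox8 that held only without w/o EF array 2 among the 8 fits that left out 1 array (adjusted p up to 0.107 in the others). The defining receptor Pdgfra was dim in re EF (3.91 to 4.95) and so was the factor Sox10 (3.73 to 3.89), and neither was called. Of 26 myelin genes 3 were lower and none higher, with 1 lower without w/o EF array 1 or 2 or re EF array 1 or 2, and 1 higher without re EF array 4. Mal fell by 0.51 (adjusted p = 0.00907). Sirt2 (-0.59) and Cnp (-0.56) were called at adjusted p of 0.0388 and 0.0464, calls that were lost without w/o EF array 1 or 2 or re EF array 1 or 2 for both, without re EF array 3 for Sirt2, and without w/o EF array 3 or re EF array 4 for Cnp (adjusted p up to 0.119).

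Neural stem cell genes divided evenly, with 7 of 28 higher and 7 lower. Nestin (Nes) read 6.30, 5.65, 6.69 and 6.64 in w/o EF and 7.96, 8.33, 7.81 and 7.88 in re EF (3.2-fold, adjusted p = 0.000145), within reach of with EF (7.85 to 8.14). Tenascin C (Tnc) and the homeobox factor Dbx2 also rose, Dbx2 2.01-fold (adjusted p = 0.00196). In contrast, Sox2 read 10.05, 9.64, 9.73 and 9.59 in w/o EF and 9.05, 8.93, 8.99 and 8.53 in re EF, so that it fell by 0.88 (adjusted p = 0.00155) to the level of with EF (8.77 to 9.18). The RNA-binding protein Msi1 fell by 1.10 and Pax6 fell by 0.80 (adjusted p = 1.65e-05 and 1.92e-05). These last 3 genes are also expressed by ependymal cells or astrocytes.

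Of 39 neuronal genes 6 were higher and 3 lower, with a median of -0.03. Without re EF array 1, 3 were higher, and 6 were lower without w/o EF array 4 or with the culture number as a block. Stmn2, a tubulin-binding protein of growing axons, read 3.94, 4.09, 4.36 and 4.40 in w/o EF and 6.27, 5.32, 7.62 and 7.0 in re EF, with 3.73 to 4.33 in with EF, a 5.13-fold rise (adjusted p = 0.00109) with much scatter between the re EF cultures. Gap43, also of growing axons, rose by 0.94 and Thy1 by 0.79 (adjusted p = 0.00366 and 0.01). Reelin (Reln) fell 3.84-fold, the kinase Camk2a 3.47-fold and Rbfox3, also known as NeuN, 1.68-fold (adjusted p = 0.000103, 2.15e-05 and 0.00478). The widely used markers Tubb3 (-0.44, adjusted p = 0.096) and Map2 (-0.19, adjusted p = 0.206) were not called, but Tubb3 was called lower with the block (adjusted p = 0.0138) and Map2 without w/o EF array 4 (-0.27, adjusted p = 0.037).

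Signals between neighbouring cells changed in both directions as well. In the Notch pathway, through which touching cells hold each other as progenitors, 5 of 26 genes were higher and 5 lower. The ligand Jag1 read 3.81, 3.65, 3.89 and 4.00 in w/o EF and 5.69, 6.18, 5.66 and 5.74 in re EF (3.95-fold, adjusted p = 7.26e-06). The transcription factor Rbpj rose by 0.79, Lfng, which modifies Notch, by 0.73 and the target Hes1 by 0.50, while the target Hey1 fell by 0.86 and Notch2 fell by 0.44 (adjusted p from 8.88e-05 for Lfng to 0.00666 for Hes1). Of 37 Wnt genes 8 were lower and 4 higher: the inhibitors Nkd2 and Nkd1 fell (differences of -1.87 and -1.2), the secreted antagonist Sfrp1 fell by 0.98, and the ligand Wnt7b and the receptor Lgr5 rose by 1.46 and 1.12. Their relatives went the other way, the ligand Wnt7a with a difference of -0.60 and the receptors Lgr4 and Fzd3 with -0.87 and -0.75 (adjusted p from 7.51e-05 for Nkd1 to 0.00608 for Wnt7a among these genes). Of 15 hedgehog pathway genes 4 were higher and 1 lower, with a median of -0.03. Without re EF array 1 or with the culture number as a block 2 were lower, and without w/o EF array 4, 3. The ligand Dhh rose 3.03-fold and the inhibitor Hhip 1.94-fold (adjusted p = 0.00158 and 0.00184), and Gas1, given above, was the gene called lower.

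Secreted cytokines included some of the larger rises. Ccl2, which attracts monocytes, read 4.36, 4.06, 4.10 and 4.46 in w/o EF and 7.23, 6.71, 6.94 and 6.30 in re EF, above with EF too (4.53 to 4.95), a 5.84-fold rise (adjusted p = 1.76e-06). Kitl, the ligand of the KIT receptor, read 7.33, 6.85, 7.36 and 6.38 in w/o EF and 9.82, 9.55, 9.34 and 8.88 in re EF (5.35-fold, adjusted p = 6.82e-05), with 7.54 to 8.49 in with EF. In both cases every re EF array exceeded all other arrays. Pleiotrophin (Ptn) rose 2.44-fold (adjusted p = 1.92e-05), while Igf1 fell 2.46-fold and Csf1, which microglia need, 1.7-fold (adjusted p = 8.7e-05 and 0.0173, or 0.0521 for Csf1 with only the 8 arrays compared). Over the list 7 of 35 were higher and 4 lower, or 2 lower without re EF array 2 or 3.

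Genes of adhesion and matrix changed in both directions. The integrin subunit Itga4, which with beta 1 binds fibronectin and VCAM1, read 4.71, 4.70, 4.71 and 5.26 in w/o EF and 6.88, 6.90, 7.15 and 6.93 in re EF (4.35-fold, adjusted p = 1.16e-06). The fibronectin receptor subunit Itga5 rose 2.96-fold (adjusted p = 9.9e-05), and Itga7, a laminin receptor subunit, fell by 0.78 (adjusted p = 0.00124). Among laminins, Lama4 rose 2.72-fold and Lamb2 fell 2.19-fold (adjusted p = 0.000109 and 0.0013). Of 58 proteoglycans, matricellular and adhesive proteins 8 were higher and 10 lower. The small leucine-rich proteins Ogn and Fmod fell 3.41-fold and 2.63-fold, and the matricellular thrombospondin 1 (Thbs1) 2.96-fold (adjusted p = 0.000513, 3.69e-05 and 0.000522). Yet Ogn and Thbs1 in re EF (6.51 to 7.92 and 8.04 to 9.24) remained far above with EF (3.78 to 4.04 and 4.36 to 4.66). Of the heparan sulphate proteoglycans, Sdc3 rose 2.36-fold and Gpc3 fell 2.63-fold (adjusted p = 6.99e-05 and 1.54e-05). Collagens gave 2 higher, Col18a1 at 2.41-fold and Col5a1 at 1.75-fold, and 5 lower of 40, led by Col8a2 at 2.95-fold (adjusted p = 6.71e-05, 0.000696 and 6.55e-05). Fewer collagens were thus higher (5%) and more were lower (12.5%) than among all genes (10.1% and 6.56%). These shares rest on few genes, and their departure from all genes was not tested. With the culture number as a block 4 collagens were higher, and the call of Col5a1 was lost in the mean of its probe sets (adjusted p = 0.0602).

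Ltbp1, which stores latent TGF-beta in the matrix, read 4.68, 4.70, 4.76 and 5.13 in w/o EF and 7.53, 7.67, 7.80 and 7.54 in re EF, above with EF too (5.08 to 5.38), a 7.04-fold rise (adjusted p = 5e-08). In the same list of SRF, YAP and TGF-beta targets, 6 of 36 were higher and 7 lower. The YAP targets Ajuba and Amotl2 fell 2.39-fold and 2.34-fold (adjusted p = 0.000496 and 5.34e-05). Other YAP targets of the list did not share this fall, and were not called or rose. Plaur, the receptor of urokinase, rose 2.36-fold (adjusted p = 5.64e-05) and the aggrecan protease Adamts5 fell 2.0-fold (adjusted p = 0.00146).

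Among axon guidance genes 6 of 41 were higher and 10 lower. The repellent Slit2 read 7.44, 7.55, 8.17 and 8.08 in w/o EF and 5.24, 5.02, 6.27 and 6.16 in re EF (4.39-fold, adjusted p = 0.000314), whereas the semaphorin receptor Plxna2 and the netrin receptor Unc5b rose 3.41-fold and 2.57-fold (adjusted p = 1.14e-06 and 1.35e-05). Of 34 potassium, sodium and calcium channels 8 were lower and 2 higher. Without w/o EF array 2 or without re EF array 2, 5 were lower. The leak channel Kcnk2 fell 3.45-fold (adjusted p = 9.29e-07) and the calcium channel Cacna1d 2.2-fold (adjusted p = 0.00112). Few markers of cells foreign to a neurosphere were called. For 25 microglial, 18 endothelial, 15 pericyte and 22 fibroblast genes, the counts higher and lower were 1 and 1, 0 and 1, 0 and 0, and 1 and 2, and no count exceeded 3 in any fit that left out 1 array. The mean signals of these lists were 3.82 to 4.03, 3.61 to 3.89, 4.54 to 5.23 and 3.86 to 4.29 over the 12 arrays. Such means hide brighter members: 18, 13, 6 and 9 genes of these lists had a mean signal below the median of the arrays. The smooth muscle gene Acta2, in the pericyte list, had group means of 10.13 in w/o EF and 9.48 in re EF. Its groups did not overlap, but it was not called (limma, adjusted p = 0.0627). Kdr, given above, was the endothelial gene called lower.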

How the data were processed

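RNA of 12 neurosphere cultures was profiled on Affymetrix mouse arrays. The authors deposited RMA values on the log2 scale, which correct for background, quantile-normalize the arrays and summarise the probes of each probe set. Affymetrix Expression Console 1.2.1 is the tool in the submitters' processing notes. An array carries no read depth, so the number of arrays limits the precision. Of 41345 probe sets, 190 controls were left out, 23521 named 1 gene, 1820 several and 15814 none. Names came from the platform annotation. Of these, 23328 were matched through the Entrez ID to a RefSeq gene, whose symbol was then used.

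All 41155 probe sets on the 12 arrays were fitted by group with limma 3.58.1 (lmFit, eBayes) in R 4.3.3, with two-sided p-values and Benjamini-Hochberg adjustment over all probe sets. The fit was tested on simulated data. A gene was called at an adjusted p under 0.05. Errors are standard errors of that fit. Fold changes are 2 to the power of the log2 difference, and are lower near background. Promoters are RefSeq windows (GRCm38.p6), read with Python 3.11.15, and figures were drawn with matplotlib 3.10.9.

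Arrays of the same culture number deviated together (correlation of w/o EF and re EF deviations from the group mean 0.275 to 0.359 for the 4 pairs, against -0.265 to 0.13 between different numbers), so the numbers, which come from the mouse in the sample titles, pair the samples. The main fit has no block, and a blocked fit is an alternative.

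Named genes were the 25 largest changes in each direction, up to 8 called members of each list by smallest p (3 where none was called) and genes the study names. Of the 337 genes this selects, 217 are given in the text, chosen after their values were seen, and genes whose calls were less stable were among those left out: under some alternative 29 of the 120 left out lost their call and 2 changed sign, against 10 and none of the 217. Acta2, among those 120, is given by its level only and stands outside the counts of named genes. Outside this rule, 12 genes given with a difference (Epha4, Dusp6, Erbb2, Lrig3, Egfr, Rb1, Pttg1, Gins4, Recql4, Hspb11, Traf3ip1 and Ttc21b) and 8 given by level only (Vim, Slc1a3, Aif1, Itgam, Pecam1, Cdh5, Sox10 and Pdgfra) were chosen after their values were seen. The comparison, the 45 lists and the tests were chosen with earlier results of these data known. The ependymal arrays of the series, of another type, were not used here. The labels give passage 1 and 3 days without factors, and the study's methods state a later passage and a longer time. For the time without factors, the study's results text gives 3 days, as the labels do.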

Additional observations from a re-analysis of the deposited data

Results flagged for a closer look

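In 33 of 474 groups of 4 arrays (237 named genes in w/o EF and in re EF), 1 array stood farther from its nearest neighbour than Dixon's 95% limit for 4 values allows. Chance alone marks about 5% of groups at this limit. Culture 4 held 17 of these arrays, culture 2 9, culture 3 5 and culture 1 2, and 19 were in w/o EF and 14 in re EF. Signals below are log2, with the range of the other 3 arrays of the group.

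In w/o EF, array 4 stood apart for Nptx1 (4.78 against 3.42 to 3.55), Fgfr2 (8.80 against 8.44 to 8.47), Erbb4 (8.11 against 8.63 to 8.72), Dkc1 (5.65 against 5.94 to 6.00), Bbs7 (6.59 against 6.85 to 6.88), Msi1 (7.89 against 8.16 to 8.20), Dbx2 (5.18 against 5.87 to 5.97), Col5a1 (5.11 against 4.81 to 4.86), Itga4 (5.26 against 4.70 to 4.71), Cacna1d (5.88 against 6.68 to 6.84) and Slc1a3 (9.71 against 9.93 to 9.94). Array 3 did so for Fgfr3 (7.52 against 7.71 to 7.72), E2f3 (5.75 against 5.41 to 5.46), Mcm3 (4.77 against 4.30 to 4.36) and Recql4 (4.35 against 4.67 to 4.72). Array 2 did so for Mcm6 (5.79 against 5.98 to 6.02), Rfx4 (8.83 against 8.42 to 8.46) and Sirt2 (10.21 against 9.62 to 9.66), and array 1 for Rbpj (7.73 against 8.07 to 8.10).

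In re EF, array 4 stood apart for Gfap (4.98 against 5.67 to 5.78), E2f3 (6.31 against 6.59 to 6.64), Apoe (5.18 against 5.55 to 5.60), Xylt1 (7.08 against 7.57 to 7.66), Col8a2 (4.78 against 4.00 to 4.10) and Slc7a1 (6.63 against 6.82 to 6.83). Array 2 did so for Hbegf (9.63 against 9.79 to 9.81), Nuf2 (8.55 against 7.62 to 7.72), Nop2 (8.09 against 7.68 to 7.70), Gnl3 (7.85 against 7.37 to 7.43), Jag1 (6.18 against 5.66 to 5.74) and Ctsh (6.91 against 6.58 to 6.61). Array 3 did so for Itga4 (7.15 against 6.88 to 6.93) and array 1 for Socs5 (5.94 against 6.31 to 6.38). For the genes in this list that were called, the calls held without the array concerned, except for Sirt2.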

How the results depend on the processing

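The counts of higher and lower genes kept within 1.5 times their values under every alternative. Without 1 array they ran from 1893 to 2095 genes higher and from 1100 to 1553 lower, and at least 2-fold from 524 to 593 higher and 288 to 372 lower. Over the other settings the extremes were 1840 higher with only the 8 arrays compared, 2912 higher and 1028 lower with each array centred on its median, and 1837 lower with a block. Quantile normalization of the 12 arrays gave 2032 and 1622. The median difference over all genes was -0.0158, and 0.0679 after centring, 0.0219 with dim probe sets left out, 0.00899 after quantile normalization and between -0.0197 and -0.00342 under the other settings. With an unadjusted p up to 0.05 and a change of 2-fold or more, 555 genes were higher and 326 lower. With the culture number as a replicate block, the fit called 2879 genes higher and 1837 lower, and 2223 and 1428 of them were also called without it. Beyond Pttg1, Rfx4 and Tubb3, the block changed the call of no named gene. Several list counts moved with the block, the largest being that of the respiratory chain, given above. Among the others, 6 neuronal genes were lower instead of 3 and 5 metalloproteinase genes were lower instead of 3. Collagens and Hox genes each had 4 higher instead of 2.

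Of the differences of 229 named genes, 3796 values over all settings kept direction and call, 90 values of 15 genes lost the call, 6 of 4 genes gained it and none changed sign. The block called Pttg1 higher (0.47, adjusted p = 0.0159) and Rfx4 and Tubb3 lower (-0.25 and -0.44, adjusted p = 0.0481 and 0.0138), and centring called Pttg1 as well (0.56, adjusted p = 0.0449). Without w/o EF array 4, Map2 was lower (-0.27, adjusted p = 0.037). The mean of all probe sets changed Etv5, Dusp6, Ereg, Rrm2, Pole and Padi2 by more than 1.5 times, as given beside them. Of 900 counts of list members, 95 in 25 lists moved by more than 1.5 times, all of them counts of 14 genes or fewer. Centring left 3 lower genes in the EGF and FGF list, 3 in the glycolysis list, 2 in the complement list, 5 in the channel list and 1 each in the myelin and interferon lists, and gave 5 higher collagens. The cause of these changes was not tested. Signals near the dim quartile limit what a fall could show.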
